A study of Rattus norvegicus with 9 samples.

Results

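The cytosolic ribosome is built from a small (40S) and a large (60S) subunit, and its protein genes, named Rps for the small and Rpl for the large subunit, were examined as a group in regenerating rat meniscal tissue and synovium. Members were the genes whose symbol had the form of such a gene (Rps or Rpl with a number and at most a closing a, x or l, together with Rpsa and Rplp0 to Rplp2), which leaves out the S6 kinases and the mitochondrial ribosome, and which were above 0 TPM (transcript abundance scaled by length and to a fixed total per library) in at least 3 of the 9 libraries. Of 78 matching symbols 77 met this, among 16512 genes tested and 17602 deposited. Rps17l, listed at 0.10 TPM in 1 sham library and at 0 in the others, was left out. Rps9, Rps19, Rpl35a and Rpl37a were not analysed here under those symbols.

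Tissue came from the knees of male wild-type Lewis rats aged 10 to 12 weeks, with 3 libraries per group. Intact libraries were synovium, the lining of the joint, around the medial meniscus of rats without surgery. Sham libraries were the same tissue 1 week after the joint capsule was opened and closed. pMx libraries were the tissue that had regrown 1 week after the anterior part of the medial meniscus was cut out (partial medial meniscectomy, pMx), taken without the surrounding synovium. Surgery and tissue type thus both differed between pMx and sham and cannot be told apart. The study describes pMx on both knees and intact rats without surgery, so libraries of different groups did not share an animal. The labels call the 3 libraries of a group biological replicates, but the sources used here do not say whether any of them came from the same rat. TPM keeps no read number, so the depth is unknown and the precision given is the spread between replicates.

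Ribosomal proteins are made in nearly equal amounts, since each ribosome holds 1 copy of almost every one of them, and their mRNAs are among the most abundant in most cells. Many of these mRNAs begin with a C followed by a run of pyrimidines (C or T), called a 5′ terminal oligopyrimidine (TOP) tract, through which mTORC1 and the binding protein Larp1 control their translation and stability. Translation elongation factors and some other translation genes carry the same tract. Several members have close paralogs, such as Rpl3l, a copy used mainly in striated muscle, and Rpl39l, known from testis and from tumors. Rodent genomes hold many processed copies of ribosomal protein genes, and how the counting treated reads shared between copies is not given in the sources used here.

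RefSeq start regions (assembly GRCr8) were matched for 62 of the 77 members. The lines that follow show 25 bases before and 25 bases from the start on the coding strand, for members that led a comparison or formed a paralog pair; capitals mark the pyrimidine run nearest to the start, where a C followed by at least 4 C or T began within 10 bases of it. Rpl9, Rps3a, Rpl19 and Rplp0 were added after their values were seen. RefSeq names the gene listed here as Rpl39l with the symbol Rpl39l1.
Rps4x (chrX:71342897-71342946, minus strand): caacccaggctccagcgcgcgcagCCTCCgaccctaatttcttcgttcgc
Rpl9 (chr14:43247565-43247614, plus strand): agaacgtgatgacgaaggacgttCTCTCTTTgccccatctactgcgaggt
Rps3a (chr2:173827018-173827067, minus strand): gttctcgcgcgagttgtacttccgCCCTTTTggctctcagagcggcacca
Rpl19 (chr10:83519039-83519088, plus strand): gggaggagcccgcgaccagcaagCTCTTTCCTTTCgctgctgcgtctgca
Rps27 (chr2:177964582-177964631, minus strand): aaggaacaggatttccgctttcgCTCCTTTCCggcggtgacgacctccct
Rplp0 (chr12:46718366-46718415, minus strand): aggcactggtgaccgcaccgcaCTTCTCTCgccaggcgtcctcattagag
Rpl39 (chrX:121195872-121195921, minus strand): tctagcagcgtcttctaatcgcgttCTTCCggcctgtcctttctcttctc
Rpl41 (chr7:1563473-1563522, minus strand): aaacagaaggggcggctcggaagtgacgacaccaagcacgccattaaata
Rps27l (chr8:76443633-76443682, plus strand): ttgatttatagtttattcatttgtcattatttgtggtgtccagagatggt
Rpl39l (chr10:5966597-5966646, minus strand): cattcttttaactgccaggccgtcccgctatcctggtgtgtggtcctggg

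The first 7 of these windows held such a run, and those of Rpl41, Rps27l and Rpl39l held none. A run began within 10 bases of the annotated start in 38 of 62 members (61.3%), against 3895 of 13298 genes with a RefSeq start region (29.3%). It began within 1 base of the start in 13 members (21.0%) and in 5.05% of all genes. Runs that began further upstream were not counted, also where they crossed the start, as in Rpl34, Rpl35, Rpl29 and Rps2. The counts are thus of where runs begin, not of all runs at the start. In the whole 300-base region, from 250 bases before to 50 after the start and on both strands, CTCTTTC was present in 30.6% of members and 8.0% of all genes, CCGGAAG in 33.9% and 15.4%, TCGCGA in 19.4% and 4.53%, TATAAA in 11.3% and 9.05%, and GGGCGG in 56.5% and 57.7%. Some CTCTTTC matches overlap the capitalized runs, as in Rpl19. These are matches of letters, and annotated starts may differ from those used in the tissue.

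Ribosomal protein mRNA made up a large part of every library. The 77 members took 18.4%, 17.6% and 16.4% of all TPM in intact replicates 1, 2 and 3, 19.1%, 19.6% and 21.1% in sham, and 16.5%, 16.5% and 17.5% in pMx. The group means were 17.5% ± 1.01 (SD, n = 3) in intact, 19.9% ± 1.03 in sham and 16.8% ± 0.578 in pMx. Every sham library was above every intact and every pMx library, while intact and pMx overlapped. No test was run on this sum, since its members were chosen with results of these data known. The 40S members took 7.92% ± 0.505 in intact, 9.12% ± 0.496 in sham and 7.81% ± 0.313 in pMx. The 60S members took 9.54% ± 0.501, 10.8% ± 0.538 and 9.02% ± 0.268. Dividing the 40S by the 60S sum gave 0.838, 0.832 and 0.819 in intact, 0.837, 0.848 and 0.847 in sham, and 0.855, 0.866 and 0.875 in pMx, so the pMx libraries had the highest ratios without overlap, by a small margin.

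**Figure D1:**
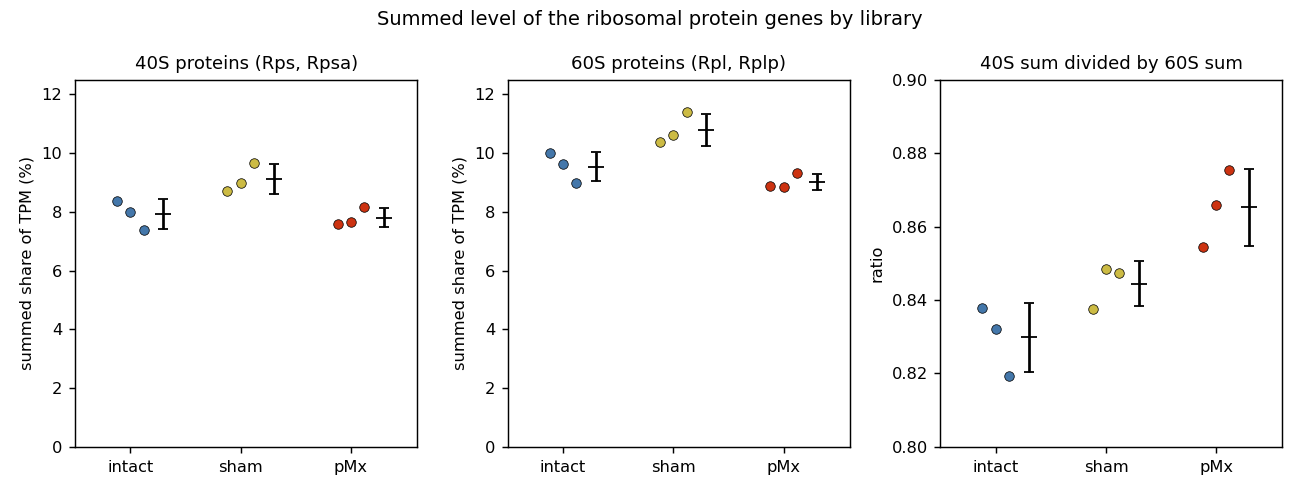
Share of all TPM (%) taken by the 40S genes (left panel) and by the 60S genes with the stalk (middle panel), and the ratio of these sums (right panel), with points for the 3 libraries of a group and a bar for the mean ± SD. The sham libraries lie above all intact and pMx libraries in both shares, at 8.70% to 9.67% and 10.4% to 11.4%, and the ratio is highest in pMx, at 0.855 to 0.875; the ratio axis does not start at 0.

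TPM is scaled to a total of 1000000 in each library, so a gene group that rises lowers the values of all others. The summed TPM of a list of synovial lining and fibroblast genes that includes collagens I and III was 14064 to 19482 in intact, 24343 to 27683 in sham and 49117 to 52350 in pMx, and that of red blood cell genes was 19458 to 37482, 9729 to 14807 and 820 to 958. Intact replicate 3 stood apart on the second principal component, which held 21.2% of the variance, and its 25 skeletal muscle genes summed to 65563 TPM, against 247 to 5047 TPM in the other 8 libraries. All 15 adipocyte genes were lower in pMx than in sham, with sums of 474 to 744 TPM in pMx, 7021 to 7981 in sham and 3997 to 10581 in intact. The study graded RNA integrity lowest in the intact libraries, higher in sham and highest in pMx, without overlap between the groups. RNA integrity thus differed along with the group in every comparison. The part of these differences in the results given here was not tested. In bulk tissue, fewer cells of a type and less RNA per cell cannot be told apart.

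Listed levels differed widely between members. TPM is scaled by length, but how reads shared between copies were counted is not given in the sources used here. Differences in level between members are therefore uncertain. Rps29 had the highest mean over the 9 libraries, 8672 TPM, followed by the stalk protein gene Rplp1 at 6419, Rps27 at 5472, Rpl41 at 4979 and Rpl13a at 4620. Rps29 and Rps27 encode small zinc-binding proteins of the 40S subunit, and Rpl41 encodes a very short peptide of the 60S subunit. The ranges of Rps27 and Rpl41 overlapped in sham and in pMx libraries but not in intact, where Rps27 was higher. At the low end, Rpl39 was at 105 TPM, Rpl39l at 32.4, Rpl3l at 16.2 and Rpl10l at 5.17. Rpl30, an ordinary protein of the 60S subunit, was listed at 0 in 5 libraries and at 0.67 to 1.17 TPM in the other 4.

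The comparison of pMx with sham asked how regenerating tissue differs from operated synovium at the same time. Of the 77 members, 33 (42.9%) were lower and 2 were higher in pMx at an adjusted p below 0.05, by limma with Benjamini-Hochberg adjustment over all genes tested. Over all genes, 18.9% were lower and 17.7% higher. The median log2 fold change of the members was -0.24, a level 15.3% lower, against -0.01 over all genes tested, and 63 of 77 estimates were below 0. In 54 members (70.1%) every pMx library was below every sham library, against 29% of all genes. The differences were small. A single member, Rpl39l, also passed the threshold that the study set for a differentially expressed gene (DEG), an absolute log2 fold change above 1, which 8.21% of all genes passed in either direction.

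The largest falls were in Rps4x, Rpl9, Rpl7, Rpl26 and Rps3a. Rps4x, an X-linked protein of the 40S subunit, was at 3100, 2952 and 3337 TPM in sham replicates 1, 2 and 3 and at 1903, 1891 and 2180 in pMx. The pMx libraries lay below every sham and intact library, and the fall was 0.65 on the log2 scale (SE 0.11, limma adjusted p = 0.0020). Rpl9, a 60S protein, was at 2080, 2063 and 2287 TPM in sham and at 1335, 1358 and 1567 in pMx, a log2 fold change of -0.60 (SE 0.11, limma adjusted p = 0.0040). The groups were again apart.

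Rpl7, another 60S protein, had the smallest error of the 5. It was at 2053, 1994 and 2226 TPM in sham and at 1383, 1325 and 1498 in pMx, and fell by 0.58 on the log2 scale (SE 0.08, limma adjusted p = 0.0009). Rpl26, which lies near the exit of the nascent chain, was at 3299, 3197 and 3964 TPM in sham and at 2326, 2398 and 2531 in pMx, a fall of 0.52 (SE 0.12, limma adjusted p = 0.0091). Rps3a was at 3477, 3237 and 3808 TPM in sham and at 2502, 2342 and 2544 in pMx, a fall of 0.51 (SE 0.10, limma adjusted p = 0.0053). For each of the 5, no pMx library reached the lowest sham library, and each was called in all 9 fits that left out 1 library.

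Among the other members that were lower in pMx at this threshold were Rpl21, Rpl5, Rpl19, Rpl13a, Rps3, Rps6, Rps14, Rps25, Rpl36a, Rps24, Rpl35, Rpl37, Rps28, Rps7, Rpl23, Rpl17, Rpl10, Rpl11, Rpl24, Rps27, Rpl34, Rps18, Rpl23a, Rpl4, Rpl32 and Rps10. By subunit, 13 of 30 members of the 40S subunit and 20 of 44 of the 60S subunit outside the stalk were lower, with median log2 fold changes of -0.24 and -0.27. Rpl5 and Rpl11, looked at after their values were seen, form with the 5S rRNA the particle that binds Mdm2, the regulator of p53. Rpl5 fell from 1766 ± 135 TPM (SD, n = 3) in sham to 1245 ± 72.0 in pMx (log2 fold change -0.50, SE 0.09, limma adjusted p = 0.0036). Rpl11 fell from 1963 ± 59.7 to 1564 ± 87.8 TPM (log2 fold change -0.33, SE 0.08, limma adjusted p = 0.0151). Of the 35 members called in either direction, 15 were called in all 9 fits that left out 1 library, and the count of lower members ranged from 14 to 45 over these fits, with 14 without pMx replicate 1, 14 without pMx replicate 2, 15 without sham replicate 3 and 45 without intact replicate 3. Quantile normalization, which gives all libraries the same distribution of values, left 11 lower and 4 higher members. Their median was then -0.12, against 0.03 over all genes tested. The shares of all genes called in these alternative fits are not given here.

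**Figure D2:**
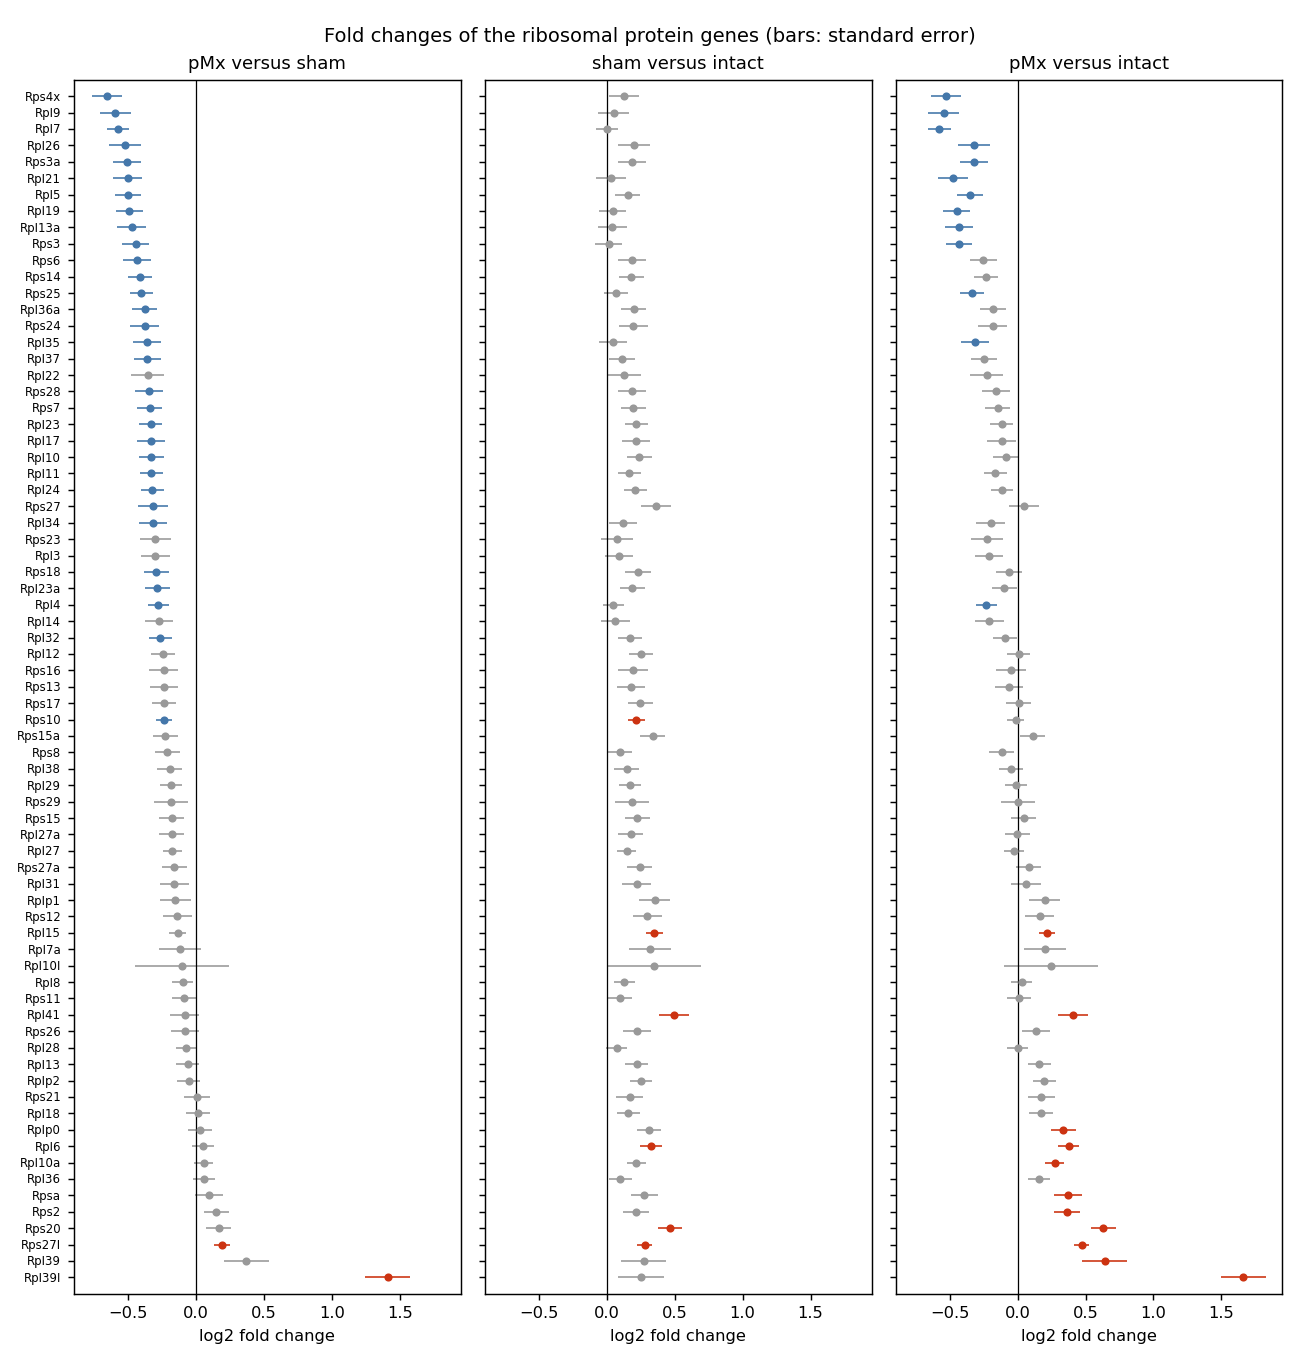
Log2 fold change of 73 ribosomal protein genes in the 3 comparisons (Rpl30 and Rpl3l are among those left out), each point a gene with its standard error from limma on log2(TPM + 1), red (higher) or blue (lower) where the adjusted p was below 0.05 and gray elsewhere. In pMx versus sham most genes lie below 0, down to -0.65 for Rps4x, and Rpl39l lies far above the rest at 1.41.

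Rpl39l and Rps27l were the members that rose. Rpl39l, a paralog of Rpl39, which encodes a short protein of the exit tunnel, was at 15.7, 18.7 and 18.4 TPM in intact, 27.3, 16.7 and 20.5 in sham and 52.7, 55.2 and 66.0 in pMx. All pMx libraries were well above the other 6. The log2 fold change from sham was 1.41 (SE 0.17, limma adjusted p = 0.0004), and it stayed between 1.25 and 1.59 over the 9 fits that left out 1 library. Rps27l, the p53-responsive paralog of Rps27, was at 152, 149 and 149.7 TPM in intact, 180, 194 and 174 in sham and 218, 198 and 210 in pMx. The groups did not overlap, but sham replicate 2 and pMx replicate 2 were close. Its rise from sham was 0.19 on the log2 scale (SE 0.06, limma adjusted p = 0.0307), and it was called in 5 of the 9 fits that left out 1 library. It was also lost with a total that excluded the members, with robust shrinkage and with the replicate number as a block (limma adjusted p = 0.0567).

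The stalk of the 60S subunit, formed by Rplp0, Rplp1 and Rplp2, recruits the factors that use GTP. None of its 3 genes was called in pMx versus sham, with log2 fold changes of 0.03, -0.15 and -0.05 and limma adjusted p of 0.850, 0.334 and 0.661. Rplp0 was at 3113, 3182 and 3110 TPM in sham and at 3098, 3210 and 3279 in pMx, with overlapping groups. For Rps20, Rps2 and Rpl39 the lowest pMx library exceeded the highest sham library, but none of them passed the threshold. Rps20 was at 2604, 2751 and 3016 TPM in sham and at 3055, 3113 and 3216 in pMx (log2 fold change 0.17, SE 0.09, limma adjusted p = 0.189).

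**Figure D3:**
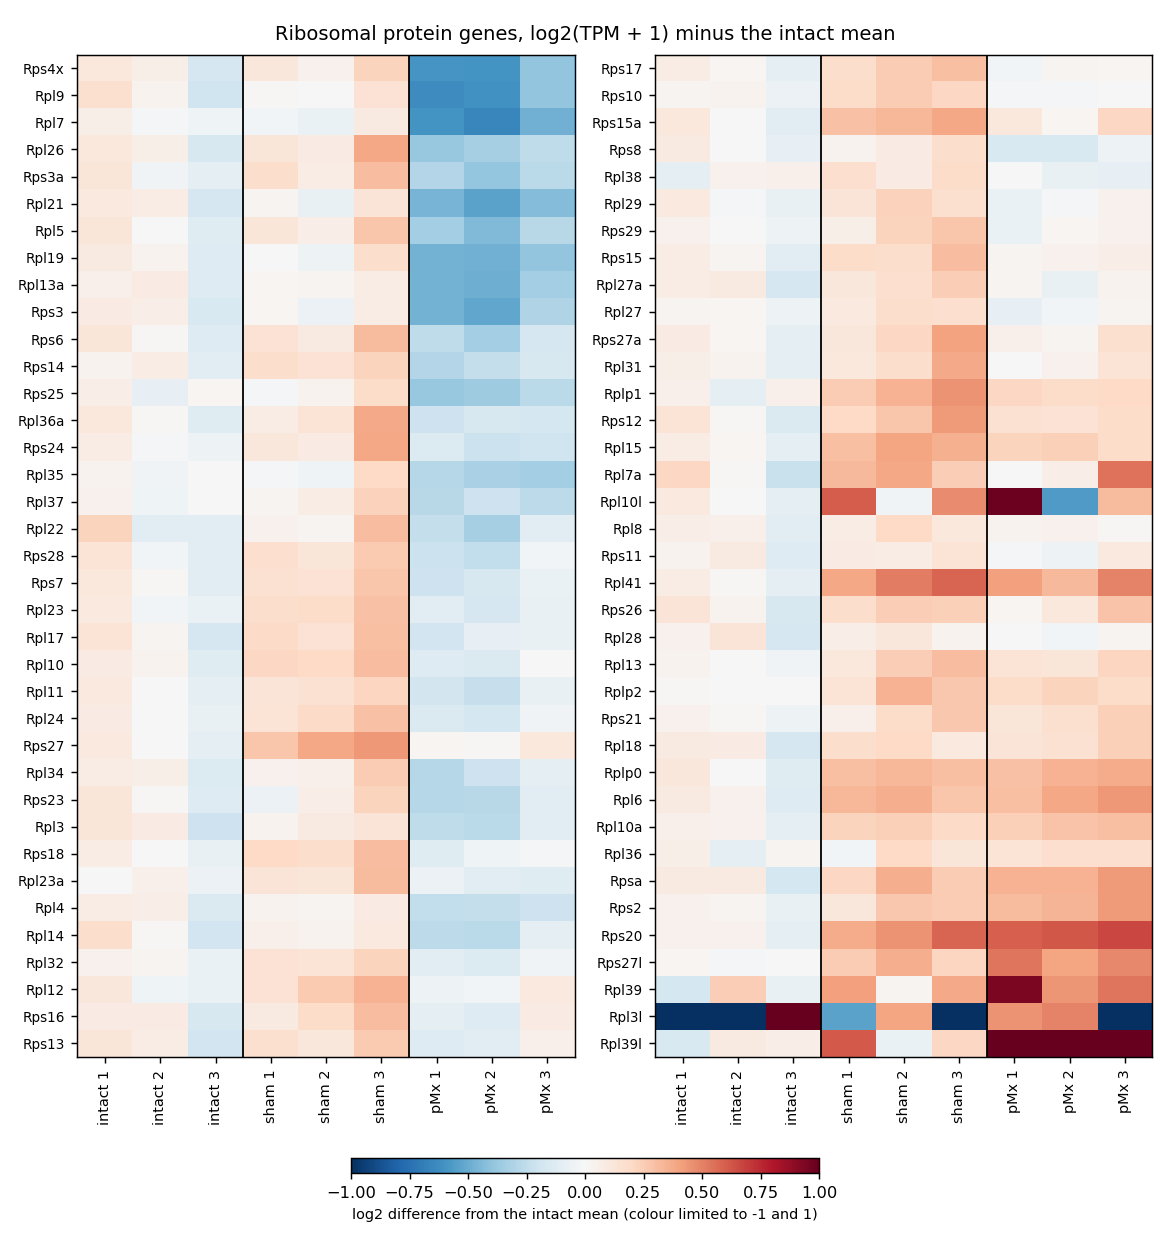
Level of 74 ribosomal protein genes in each of the 9 libraries (Rpl30 is among those left out), as log2(TPM + 1) minus the mean of the intact group, with red above and blue below it and colors limited to -1 and 1, ordered by the pMx versus sham difference down the left panel and then the right. The left panel is mostly blue in the 3 pMx columns, strongest for Rps4x, Rpl9 and Rpl7, while Rps20, Rps27l and Rpl39l at the end of the right panel are red there, and Rpl3l follows no group.

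Sham synovium was compared with intact synovium to show what surgery without meniscal damage does to the tissue. Here the members were higher. At an adjusted p below 0.05, 6 genes rose (Rpl41, Rps20, Rpl15, Rpl6, Rps27l and Rps10), 7.79% of the members against 6.73% of all genes tested, so the share called was near that over all genes. No member was lower by limma, against 5.97% of all genes, and at an unadjusted p below 0.05 the counts were 24 higher (31.2%, against 13.8% of all genes) and 0 lower (against 15.0%). The median log2 fold change was 0.19, against -0.02 over all genes, with 74 of 77 estimates above 0. In 44 members (57.1%) every sham library was above every intact library, against 14.2% of all genes. No member was a DEG, against 1.96% of all genes.

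Rpl41 was at 4207, 4034 and 3754 TPM in intact and at 5215, 5689 and 5991 in sham, a log2 fold change of 0.49 (SE 0.11, limma adjusted p = 0.0258). Rps20, a 40S protein, was at 2078, 2082 and 1900 TPM in intact, and its log2 fold change to sham was 0.46 (SE 0.09, limma adjusted p = 0.0168). In both genes the groups were well apart. Rpl15 rose by 0.35 (SE 0.06, limma adjusted p = 0.0121), from 408 ± 25.6 to 520.3 ± 17.1 TPM (SD, n = 3), and Rpl6 by 0.33 (SE 0.08, limma adjusted p = 0.0337). Rps27l rose by 0.28 (SE 0.06, limma adjusted p = 0.0204) and Rps10, the smallest of the 6, by 0.22 (SE 0.06, limma adjusted p = 0.0485). These calls depended on single libraries: none of the 6 was called in all 9 fits that left out 1 library. The count was 0 without sham replicate 2, 2 without sham replicate 1, 2 without intact replicate 2, 3 without sham replicate 3, 3 without pMx replicate 1 and 7 without intact replicate 3. A fit on the 6 libraries of the comparison called 0, while a minimum mean of 1 TPM gave 13.

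Between pMx and intact tissue the members moved in both directions. The median log2 fold change was -0.05, against -0.03 over all genes tested, with 33 estimates above and 44 below 0. By limma 11 members were higher (14.3%, against 23.4% of all genes) and 14 were lower (18.2%, against 27.1%), both below the share over all genes. The DEG thresholds were passed by 1 member, Rpl39l, and by 14.3% of all genes. With quantile normalization 14 members were higher and 7 lower, so the split between the directions depended on the scaling.

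Rpl39l led the 11 members that were higher in pMx than in intact, with a log2 fold change of 1.66 (SE 0.17, limma adjusted p = 6.6e-05). Rpl39 followed at 0.64 (SE 0.17, limma adjusted p = 0.0114), with 73.2, 98.3 and 78.7 TPM in intact and 159.9, 113 and 120.4 in pMx. Rps20 rose by 0.63 (SE 0.09, limma adjusted p = 0.0005) and Rps27l by 0.47 (SE 0.06, limma adjusted p = 0.0002). The rest were Rpl41 (0.41), Rpl6 (0.38), Rpsa (0.37), Rps2 (0.36), Rplp0 (0.34), Rpl10a (0.27) and Rpl15 (0.22). Rpsa encodes a 40S protein that is also known as a laminin receptor precursor. Rps20, Rps27l, Rpl41, Rpl6 and Rpl15 had also been called in sham versus intact, a comparison that uses the same intact libraries.

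The falls from intact were led by Rpl7, at 2170, 2077 and 2023 TPM in intact against 1325 to 1498 in pMx (log2 fold change -0.58, SE 0.08, limma adjusted p = 0.0005). Rpl9 fell by 0.54 (SE 0.11, limma adjusted p = 0.0042), Rps4x by 0.53 (SE 0.11, limma adjusted p = 0.0039), Rpl21 by 0.48 (SE 0.11, limma adjusted p = 0.0066) and Rpl19 by 0.45 (SE 0.10, limma adjusted p = 0.0054). Among the others were Rpl13a, Rps3, Rpl5, Rps25, Rpl26, Rps3a, Rpl35 and Rpl4. Intact and sham were close in the 5 named first, with log2 differences of 0.00 for Rpl7, 0.05 for Rpl9, 0.13 for Rps4x, 0.03 for Rpl21 and 0.04 for Rpl19. The 3 comparisons share libraries, so their values are given side by side and not as independent results. Without intact replicate 3, the library rich in muscle RNA, 11 members were higher and 20 lower.

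**Figure D4:**
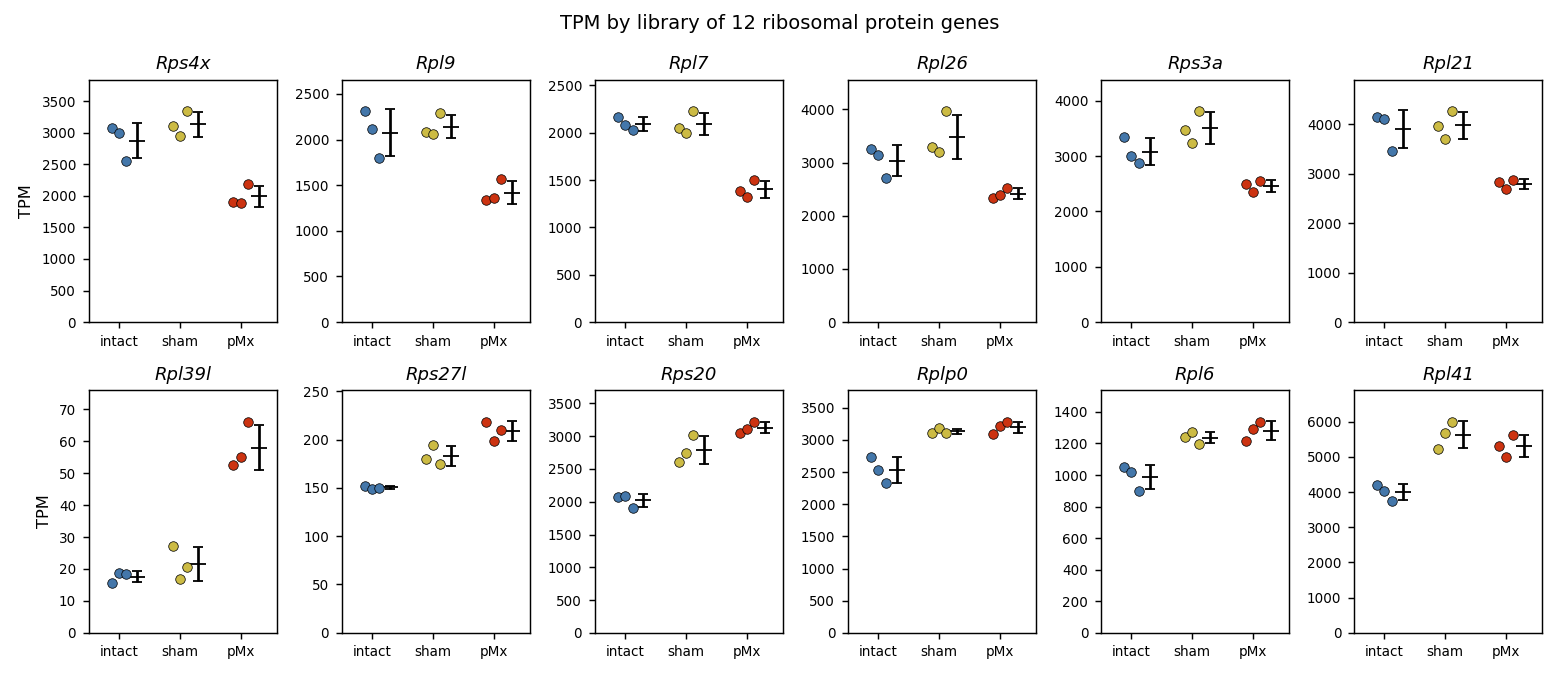
TPM of 12 ribosomal protein genes in each library of intact, sham and pMx tissue, with points for the 3 libraries and a bar for the mean ± SD; each panel has its own axis. Rps4x, Rpl9 and Rpl7 are lowest in pMx (Rps4x at 1891 to 2180 TPM against 2556 to 3337 in the other 6 libraries), and Rpl39l is highest there, at 52.7 to 66.0 TPM.

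Paralogs were set against their partners as a percentage of the partner's TPM, a ratio that does not depend on the scaling of the library. It does depend on how reads shared between copies were counted, which is not given, so the size of these percentages is uncertain. Rpl39, the partner of Rpl39l, was listed low among the members, at a mean of 105 TPM over the 9 libraries. Rpl39l was at 21.3% ± 2.18 (SD, n = 3) of Rpl39 in intact, 21.2% ± 3.12 in sham and 45.5% ± 11.3 in pMx. Rps27l was at 3.05% ± 0.180, 2.88% ± 0.226 and 4.10% ± 0.229 of Rps27. Rpl36al, which lies outside the naming rule, was at 66.3% ± 6.80, 67.7% ± 1.34 and 83.1% ± 3.25 of Rpl36a, Rpl7l1 at 3.83% ± 0.215, 3.61% ± 0.171 and 5.07% ± 0.138 of Rpl7, and Rpl22l1 at 15.5% ± 2.57, 17.3% ± 0.926 and 19.9% ± 0.846 of Rpl22. In all 5 pairs every pMx library had a higher ratio than every sham and intact library. With 3 libraries against 3 the test cannot give a two-sided exact permutation p below 0.1, which each pair reached for pMx against both groups (Benjamini-Hochberg adjusted 0.21 over 21 tests), so none passed a threshold of 0.05. Rpl39l and Rps27l rose themselves and Rps27 fell, in Rpl36al, Rpl7l1 and Rpl22l1 the paralog was not called (log2 fold changes from sham of -0.08, -0.09 and -0.15), and Rpl36a and Rpl7 were among the members that fell. Rpl22 missed the threshold at -0.36 (SE 0.12, limma adjusted p = 0.0504).

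Rpl3l and Rpl10l showed no such pattern. Rpl3l was at 0.57, 1.14 and 112 TPM in intact, 4.0, 8.50 and 0.70 in sham and 8.91, 9.20 and 0.90 in pMx, with more spread inside each group than between groups (limma adjusted p of 0.870 for pMx versus sham). Across the 9 libraries it was high where the skeletal muscle genes were high: the summed muscle TPM was 261, 606 and 65563 in intact, 2248, 4983 and 549 in sham and 4279, 5047 and 247 in pMx. None of the 25 muscle genes was called by limma in any comparison, and 0 had an unadjusted p below 0.05. Its partner Rpl3 was at 1695 ± 208, 1793 ± 58.8 and 1458 ± 86.2 TPM. Rpl10l, at 2.48 to 9.15 TPM over all libraries, overlapped between all groups.

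**Figure D5:**
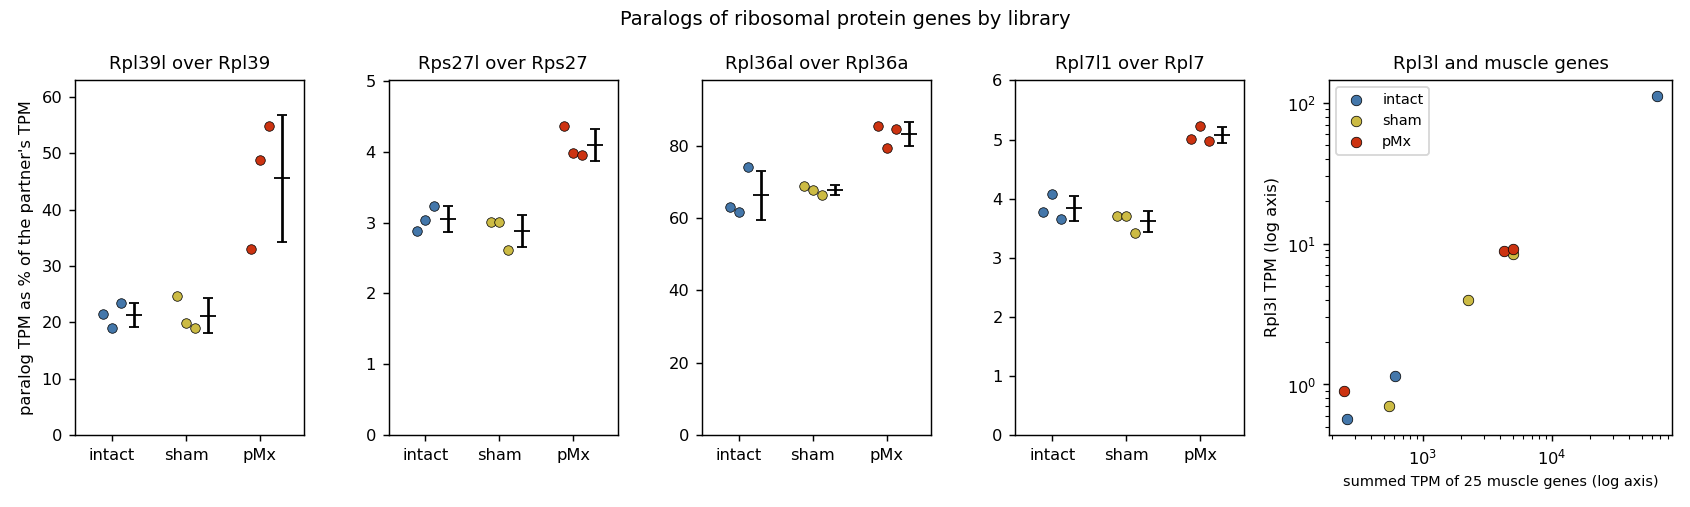
The first 4 panels show a paralog's TPM as a percentage of its partner's TPM in each library (points) with the mean ± SD (bar) for Rpl39l, Rps27l, Rpl36al and Rpl7l1, and the last shows Rpl3l TPM against the summed TPM of 25 skeletal muscle genes, both on log axes. The pMx points lie above all others in the first 4 panels, and intact replicate 3 lies alone at the upper right of the last, at 112 TPM of Rpl3l and 65563 TPM of muscle genes.

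Among members with a RefSeq start region, 38 had a pyrimidine run that began within 10 bases of the start. Rpl9 and Rpl19 in the lines printed above are examples. The 38 had a median log2 fold change from sham to pMx of -0.28, with 0 higher, also at an unadjusted p below 0.05, and 18 lower. The other 24 had a median of -0.16, with 2 higher and 9 lower, and the 2 were Rps27l and Rpl39l. Some of these 24, among them the lower members Rpl34 and Rpl35, held a run that began further upstream and crossed the start. The 2 sets therefore do not separate members with and without a run at the start. The range of each set covered most of the other (-0.65 to 0.42 and -0.52 to 1.41), and the difference between the sets was not tested. From intact to sham the medians were 0.19 and 0.20.

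Other proteins of the cytosolic ribosome have names outside the rule. Fau, which encodes a ubiquitin-like protein fused to the 40S protein S30, fell from 2918 ± 209 TPM (SD, n = 3) in sham to 2228 ± 80.5 in pMx (log2 fold change -0.39, SE 0.10, limma adjusted p = 0.0173). The scaffold protein gene Rack1 was at 1368 ± 44.4 and 1224 ± 79.1 TPM (adjusted p = 0.184 by limma). The ubiquitin-fused member Rps27a was at 1297 ± 133 and 1157 ± 57.0 TPM (adjusted p = 0.217 by limma). Neither Rack1 nor Rps27a passed the threshold.

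Elongation factors and other genes with TOP mRNAs were next examined, using a list of 18. For this and the following lists, the shares over all genes were 17.7% higher and 18.9% lower in pMx versus sham. They were 6.73% and 5.97% in sham versus intact, and 23.4% and 27.1% in pMx versus intact. In pMx versus sham 5 were lower and 1 higher, with a median of -0.11. Tpt1, a classic TOP mRNA, fell by 0.48 (SE 0.11, limma adjusted p = 0.0085), from 5535 ± 457 to 3948 ± 109.8 TPM. Naca, part of the complex that meets the nascent chain, fell by 0.42 (SE 0.07, limma adjusted p = 0.0025). The initiation factor genes Eif4b and Eif3h fell by 0.36 and 0.35, with Eif3f the fifth at -0.30. The member that rose, Hnrnpa1, was at 0.25. Eef1a1, the most abundant elongation factor, was at 9711 ± 355 and 7636 ± 335 TPM without passing the threshold (log2 fold change -0.35, SE 0.15, limma adjusted p = 0.106), and neither Eef2 (-0.12) nor Npm1 (-0.01) was called. From intact to sham 3 of the 18 were higher (Pabpc1 at 0.60, Npm1 at 0.37 and Eef1b2 at 0.27) and 1 was lower. From intact to pMx 4 were higher and 4 lower, both below the shares over all genes.

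Genes that build ribosomes or supply them with tRNA and mRNA were counted in the same fit. Of 70 ribosome biogenesis genes, 21 were higher and 4 lower in pMx than in sham, with a median of 0.10. Polr1g, a subunit of RNA polymerase I, rose by 0.86 (SE 0.16, limma adjusted p = 0.0032), and Bysl, needed for 40S maturation, by 0.73 (SE 0.12, limma adjusted p = 0.0017), whereas Sbds, which helps the 60S subunit to mature, fell by 0.57 (SE 0.06, limma adjusted p = 0.0002). The rRNA methyltransferase gene Fbl rose by 0.29, and Ncl was at -0.02 and Polr1a at 0.14 without a call. Of 22 aminoacyl-tRNA synthetases, 10 were higher and 1 lower, led by Gars at 1.04 (SE 0.11, limma adjusted p = 0.0002) and Tars1 at 0.67. Of 29 initiation factors, 7 were higher and 3 lower. That list leaves out Eif3f, Eif3h, Eif3k, Eif3l and Eif4b, which were counted with the TOP mRNAs. Of these, Eif3f, Eif3h and Eif4b were lower, and Eif3k and Eif3l were not called. The balance among initiation factors thus depends on how the lists were divided. Eif4a2 fell by 0.76 (SE 0.06, limma adjusted p = 7.0e-05), while its relative Eif4a1 rose by 0.46 (SE 0.08, limma adjusted p = 0.0018) and the scaffold Eif4g1 by 0.63 (SE 0.08, limma adjusted p = 0.0005). From intact to sham these 3 lists held 1, 0 and 0 higher and 4, 0 and 2 lower genes by limma (at an unadjusted p below 0.05, the synthetases had 1 higher and 3 lower and the initiation factors 2 higher), and from intact to pMx 18, 10 and 8 higher and 8, 2 and 7 lower.

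Of 34 genes of mTORC1 and TOP mRNA control, 6 were higher and 4 lower in pMx than in sham, with a median of -0.01. Both counts were near or below the shares over all genes (17.7% and 18.9%). Ddit4, an inhibitor of mTORC1 induced by stress, rose by 0.98 (SE 0.12, limma adjusted p = 0.0005). Pdcd4, an inhibitor of Eif4a, fell by 0.97 (SE 0.09, limma adjusted p = 0.0001) and Sesn1, a p53-responsive inhibitor of mTORC1, by 0.48 (SE 0.09, limma adjusted p = 0.0030). Myc, a driver of ribosome production, rose by 0.53 (SE 0.14, limma adjusted p = 0.0183) and Larp1 by 0.45 (SE 0.06, limma adjusted p = 0.0009), while Eif4ebp1 missed the threshold at 0.31. From intact to sham 1 was higher and 0 lower by limma (6 lower at an unadjusted p below 0.05), and from intact to pMx 9 and 7. The 75 genes of the mitochondrial ribosome had a median of 0.00 in pMx versus sham, with 3 higher, among them Mrps12 at 0.58, and 3 lower, among them Mrpl48 at -0.39. From intact to sham 0 were higher by limma (3 at an unadjusted p below 0.05) and 3 lower, and from intact to pMx 7 and 17.

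Cell cycle genes rose in every comparison. Of 16, 15 were higher in pMx than in sham, 14 in sham than in intact and 16 in pMx than in intact, with none lower, and their summed TPM was 149 to 167 in intact, 203 to 274 in sham and 498 to 556 in pMx. Marker lists of other cells were counted beside the shares over all genes, 17.7% higher and 18.9% lower from sham to pMx. The macrophage counts were near or below these shares, with a list median of -0.04. From sham to pMx, 0 adipocyte genes were higher and 15 of 15 lower, 1 and 3 of 14 macrophage genes, 0 and 4 of 12 endothelial genes, 1 and 8 of 10 nerve and Schwann cell genes, 0 and 5 of 6 red blood cell genes, 5 and 4 of 13 synovial lining and fibroblast genes, and 5 and 2 of 12 cartilage and fibrocartilage genes. From intact to sham, 7 of 14 macrophage genes were higher and all 6 red blood cell genes lower, with 0 adipocyte genes called by limma (2 higher and 1 lower at an unadjusted p below 0.05). In the same comparison 0 endothelial genes were higher and 5 of 12 lower. Synovial lining and fibroblast genes had 5 higher and 3 lower of 13, and cartilage and fibrocartilage genes 3 and 1 of 12. Of 10 nerve and Schwann cell genes 1 was higher and 0 lower by limma (3 lower at an unadjusted p below 0.05). Over all genes 6.73% were higher and 5.97% lower. Their part in the ribosomal protein levels was not tested.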

How the data were processed

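mRNA from 9 rat tissue samples was captured with oligo-dT beads, made into stranded libraries and sequenced on a DNBSEQ platform. The authors deposited TPM values per gene. The submitters' processing notes name HISAT2 2.0.4 and the build mRatBN7.2 without their roles, and the counting tool, annotation and filters are not given in the sources used here. TPM was transformed as log2(TPM + 1), which understates changes of low genes, and genes listed above 0 TPM in fewer than 3 libraries were dropped, which left 16512. The limma package (version 3.58.1, R 4.3.3) fitted a mean for each group to the 9 libraries together, using eBayes with trend and Benjamini-Hochberg adjustment over all genes tested in each of 3 comparisons. A gene was called at an adjusted p below 0.05. DEGs had in addition an absolute log2 fold change above 1. Leaving out 1 library leaves 2 in its group, with the spread pooled over all groups. SDs are over TPM. Limma p-values rest on the spread between samples within groups, pooled over the 3 groups, so they also depend on the group outside the comparison.

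Tested on simulated data of 16512 genes, the pMx versus sham fit called 98.5% of 200 genes changed by 2 on the log2 scale and 25.5% of 200 changed by 0.5, with 12 and 0 unchanged genes called. Far more genes were called in the real comparison (2926 higher and 3120 lower), and the 200 were drawn without regard to membership. These rates therefore need not hold for the members.

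Members and gene lists were chosen with earlier results of these data known. Named genes were the 5 largest rises and falls among called members, the 5 highest and lowest members by mean TPM, the paralog pairs, stalk, ubiquitin-fused and Rack1 genes, members called against the median, and up to 4 genes of each other list. Genes said to be added later fall outside this. Some genes that the rule covers are counted but not named or drawn here. Start regions are RefSeq windows of GRCr8, which is not the build of the deposited values; the definition of the pyrimidine run was settled with the sequences in view. Of the deposited gene identifiers, 17419 (99.0%) were found in RefSeq. Alternatives covered pseudocounts of 0.1 and 0.01, filters, scaling, the libraries fitted, the variance model, a replicate block, thresholds and leaving out each library. Permutation tests used SciPy 1.17.1 and figures Matplotlib 3.10.9.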

Additional observations from a re-analysis of the deposited data

How the results depend on the processing

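Of the alternative values of the named genes, 1801 kept their direction and side of the threshold, 96 lost and 46 gained a call, and 34 changed sign, all of genes that were called neither in the main result nor under that alternative. For pMx versus sham, the 2 higher members became 4 with quantile normalization, 1 with a total without the ribosomal protein genes, 1 with robust eBayes, 1 at an adjusted p below 0.01, 1 at the DEG thresholds and 1 to 2 without 1 library. The 33 lower members became 11 with quantile normalization (10 of them shared), 12 at an adjusted p below 0.01, 0 at the DEG thresholds and 14 to 45 without 1 library. For sham versus intact, the 6 higher members became 13 with a mean of at least 1 TPM, 11 with median-of-ratios scaling, 13 without the trend, 13 with robust eBayes, 0 with the 6 libraries of the comparison, 0 at an adjusted p below 0.01, 0 at the DEG thresholds and 0 to 7 without 1 library. For pMx versus intact, the 11 higher members became 5 at an adjusted p below 0.01, 1 at the DEG thresholds and 9 to 11 without 1 library, and the 14 lower became 7 with quantile normalization, 7 at an adjusted p below 0.01, 0 at the DEG thresholds and 8 to 20 without 1 library. With quantile normalization the members' median for pMx versus intact changed sign too, from -0.05 to 0.03. The causes were not tested.

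With the replicate number as a block, pMx versus sham had 1 higher and 19 lower members (all 19 shared with the fit without it), sham versus intact 3 higher and 0 lower, and pMx versus intact 11 higher and 9 lower. Deviations of same-numbered libraries correlated at 0.03, 0.37 and 0.48 between pMx and sham, at 0.00, -0.40 and -0.49 between sham and intact and at -0.38, -0.44 and -0.66 between pMx and intact. These correlations cannot show whether same-numbered libraries shared a day or batch, and the main fit did not treat the numbers as pairs. Depth is unknown, and 3 libraries per group limit the fit.

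Sign changes of uncalled log2 fold changes were as follows. For pMx versus sham, Rpl6 and Rplp0 came to -0.0053 and -0.027 with a total without the ribosomal protein genes, Rplp2 to 0.14 with quantile normalization, and without 1 library Rpl10l ranged from -0.47 to 0.30 and Rpl3l from -0.26 to 1.22. For sham versus intact, Rpl19 and Rpl21 came to -0.086 and -0.032 with quantile normalization, and Rpl7 to 0.019 with median-of-ratios scaling and 0.043 with a total without the ribosomal protein genes. Without 1 library, Rpl13a ranged from -0.025 to 0.083, Rpl19 from -0.026 to 0.089, Rpl21 from -0.058 to 0.080, Rpl3 from -0.018 to 0.15, Rpl30 from -0.27 to 0.25, Rpl3l from -1.85 to 1.24, Rpl7 from -0.046 to 0.033 and Rpl9 from -0.048 to 0.13. For pMx versus intact, Rpl10 came to 0.014 and Rps29 to -0.083 with quantile normalization, and Rps29 to -0.0092 with a total without the ribosomal protein genes. Without 1 library, Rpl10l ranged from -0.12 to 0.65, Rpl3l from -1.43 to 1.65, Rps27 from -0.0023 to 0.095 and Rps29 from -0.024 to 0.034.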

Other observations

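Several genes with ribosomal protein symbols that the naming rule does not reach, chosen here after their values were seen, were abundant or moved. Rps19l2 was at 2578 ± 183 TPM (SD, n = 3) in intact, 2841 ± 255 in sham and 2432 ± 265 in pMx, and Rps9l1 at 1741 ± 164, 1935 ± 61.7 and 1631 ± 74.9 TPM. Both lie in the range of the ordinary members, and neither was called in pMx versus sham (limma adjusted p of 0.164 and 0.0635). Rps10l1 was at 456 ± 42.4 TPM in sham and 390.3 ± 13.5 in pMx (limma adjusted p = 0.0714), next to 1114 ± 26.8 and 947 ± 6.67 TPM for Rps10. Rps4y2 moved against its relative Rps4x: it was at 34.1, 28.1 and 32.2 TPM in sham and at 41.9, 54.2 and 49.8 in pMx, a log2 fold change of 0.61 (SE 0.11, limma adjusted p = 0.0024), while Rps4x fell by 0.65 on the log2 scale. Whether these symbols mark extra copies or ordinary ribosomal protein genes was not examined. How reads shared between related genes were assigned is not given in the sources used here, so the values of these genes and of their relatives are uncertain.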
